A study of Homo sapiens with 6 samples.

Results

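The genes of endosomal sorting that carry the names VPS (vacuolar protein sorting) and CHMP (charged multivesicular body protein), together with TSG101, HGS, STAM, STAM2 and SNF8, were followed in HCT116 cells depleted of PNO1. Members were the probe sets whose only gene symbol in the platform's gene table started with VPS or CHMP and a digit, or was one of those 5 symbols or PDCD6IP. This gave 135 probe sets of 50 genes, out of 49395 probe sets and 18132 genes on the array. PDCD6IP had no probe set in that table, and the 3 probe sets of CHMP3 and 1 of VPS72 carry a second gene's symbol, so they were not analysed here. HCT116 is a human colorectal cancer cell line. The sh-PNO1 group held 3 samples transduced for 72 h with a lentivirus that carried an shRNA against PNO1, a factor needed to mature the small ribosomal subunit, and the sh-Ctrl group held 3 samples given a control shRNA in the same way. Every sample was therefore a virus-transduced culture of the same line, and the labels do not say how many hairpins against PNO1 were used or whether replicates were separate cultures, so the p-values speak only of how far these arrays scatter, which may be technical.

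As background, membrane proteins that reach the endosome are either sent to the lysosome or recycled. The ESCRT complexes do the first: ESCRT-0 binds ubiquitin-tagged cargo, ESCRT-I and ESCRT-II gather it and bend the membrane inward, ESCRT-III filaments of CHMP proteins cut the neck of the bud, and the VPS4 ATPases take the filaments apart. The same filaments and ATPases also cut the last bridge between dividing cells and reseal the nuclear envelope. Retromer and retriever bring receptors back from the endosome, HOPS and CORVET tether endosomes and lysosomes before fusion, and GARP and EARP tether recycling carriers at the Golgi and at recycling endosomes.

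The target itself fell. PNO1 read 105, 108 and 105 on the sh-PNO1 arrays, against 535, 535 and 532 on the sh-Ctrl arrays (log2 fold change −2.33 ± 0.04 SE, limma adjusted p = 3.32e-07), in intensity units on a linear scale. The epithelial markers EPCAM, CDH1, KRT8, KRT18, KRT19 and CDX2 were above 50 in a group mean, VIL1 and LGR5 were not, and none of 13 fibroblast, leukocyte and endothelial markers was. The summed level of the 8 epithelial markers was 9524 to 9878 in sh-PNO1 and 8758 to 9173 in sh-Ctrl. KRT19 (mean 3000 in sh-PNO1 and 2329 in sh-Ctrl, limma adjusted p = 0.000560) and CDH1 (287 and 232, limma adjusted p = 0.00222) passed as higher. The other epithelial markers did not pass, and EPCAM, KRT18 and VIL1 stood lower in sh-PNO1. Median intensity was 25.6 to 25.9 on the 6 arrays. For ACTB, the log2 excess of the 3' over the 5' probe set, which reads RNA quality, was 2.25 in sh-PNO1 replicate 2 and 1.73 to 1.87 elsewhere. For GAPDH it was −0.056, −0.077 and −0.058 in sh-PNO1, slightly below the −0.028, −0.024 and −0.013 in sh-Ctrl. The part of RNA quality in the results was not tested. In RNA from a whole culture, a shift in the mix of cells and a change within each cell cannot be told apart.

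More of the sorting genes rose than fell. All 49293 probe sets that are not controls were fitted in limma on log2 intensities, and each gene was called by its brightest probe set at an adjusted p under 0.05 over all of them. By this rule 21 of the 50 genes rose, 9 fell and 20 did not pass. Over all 18132 genes, 18.4% rose and 13.2% fell. The sorting genes were brighter than most, with a median over genes of the mean intensity of 166, against 43.2 for all genes. Among the 9519 genes at least as bright as the dimmest of the 50, 29.2% rose and 21.5% fell. The 9 that fell, 18% of the 50, were thus near the share of these 9519 genes, and the 21 that rose, 42%, were above it. That set only leaves out genes dimmer than the dimmest of the 50, and was not matched to them in brightness. The median log2 fold change was 0.15 over the 50 genes and 0.03 over all genes. Over the 135 probe sets 38 rose and 25 fell, where 14.8% of all probe sets rose and 13.2% fell, and their median was 0.04. In 29 genes the 3 sh-PNO1 arrays lay above the 3 sh-Ctrl arrays, in 9 below, and in 12 the groups overlapped, while 44.7% of all genes had groups that did not overlap. Of the 50 genes 6 passed with a change of 0.5 or more on the log2 scale, 2 lower and 4 higher, where 6.88% of all genes did so. The shares for probe sets, for groups that did not overlap and for changes of 0.5 or more were taken over the whole array. They were not taken over brighter genes alone, so they do not show whether the sorting genes exceed those.

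**Figure D1:**
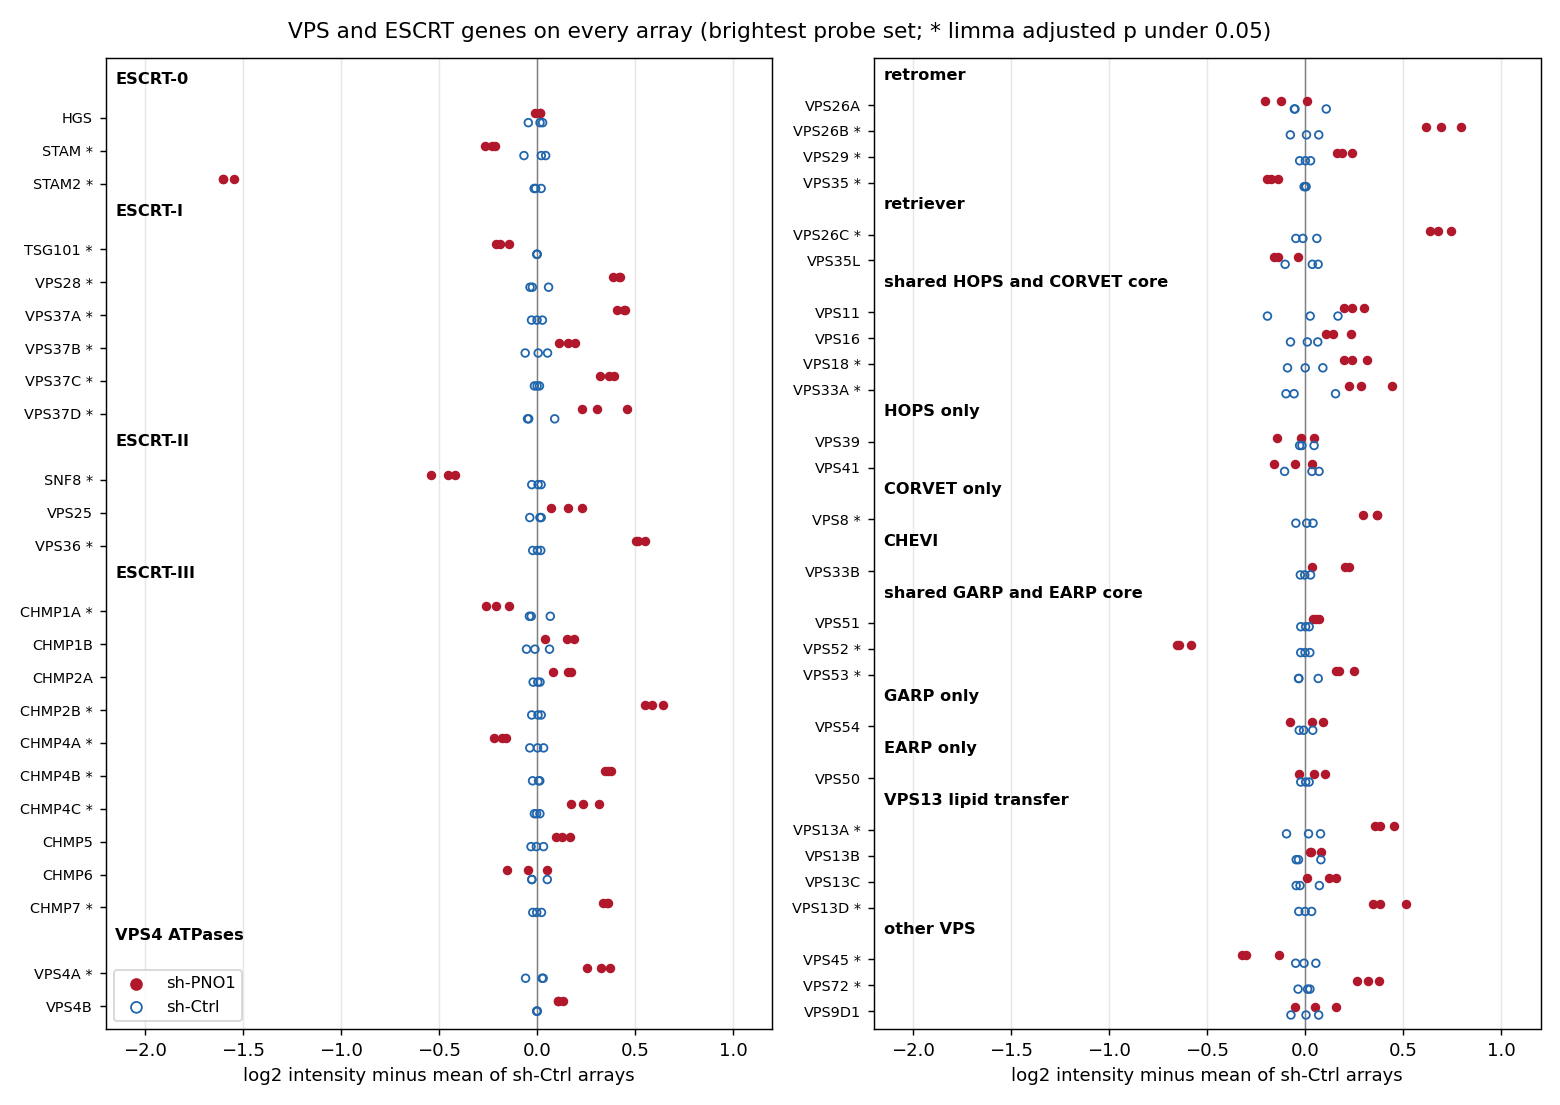
Log2 intensity of each of the 50 genes on every array, minus the mean of the sh-Ctrl arrays (x axis, brightest probe set), grouped by complex; filled red points are the 3 sh-PNO1 arrays and open blue points the 3 sh-Ctrl arrays. STAM2 and VPS52 lie farthest to the left, VPS26B and VPS26C farthest to the right.

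The largest change was the fall of STAM2, an ESCRT-0 subunit that holds ubiquitin-tagged receptors. Its brightest probe set read 40.9, 42.5 and 40.9 in sh-PNO1, against 123, 123 and 126 in sh-Ctrl. The sh-PNO1 mean was 33.4% of the sh-Ctrl mean, with the groups far apart (log2 fold change −1.58 ± 0.04 SE, limma adjusted p = 8.24e-07). Only 19 of 18132 genes, STAM2 among them, had a fold change as low. VPS52, a shared subunit of GARP and EARP, read 106, 101 and 102 in sh-PNO1, against 162, 159 and 157 in sh-Ctrl and also fell without overlap (log2 fold change −0.63 ± 0.04 SE, limma adjusted p = 3.49e-05). On the other side stood the alternative VPS26 subunits. VPS26B, a cargo-binding arrestin-like subunit of retromer, read 249.9, 221 and 233 in sh-PNO1, against 151, 137 and 145 in sh-Ctrl, so that each sh-PNO1 array was far above each control (log2 fold change 0.70 ± 0.06 SE, limma adjusted p = 0.000110). VPS26C, its counterpart in retriever, read 284, 271 and 263 in sh-PNO1, against 168, 176 and 164 in sh-Ctrl, with all sh-PNO1 arrays higher (log2 fold change 0.69 ± 0.05 SE, limma adjusted p = 4.81e-05, higher on 2 of 3 probe sets). CHMP2B, an ESCRT-III subunit that is mutated in a familial frontotemporal dementia, read 366, 343 and 352 in sh-PNO1, against 238, 235 and 230.0 in sh-Ctrl, with no overlap (log2 fold change 0.59 ± 0.04 SE, limma adjusted p = 5.33e-05). VPS36, the ESCRT-II subunit that binds ubiquitin, read 315, 317 and 325 in sh-PNO1, against 225, 222 and 219 in sh-Ctrl, again with all sh-PNO1 arrays higher (log2 fold change 0.52 ± 0.04 SE, limma adjusted p = 6.76e-05, higher on 4 of 8 probe sets).

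**Figure D2:**
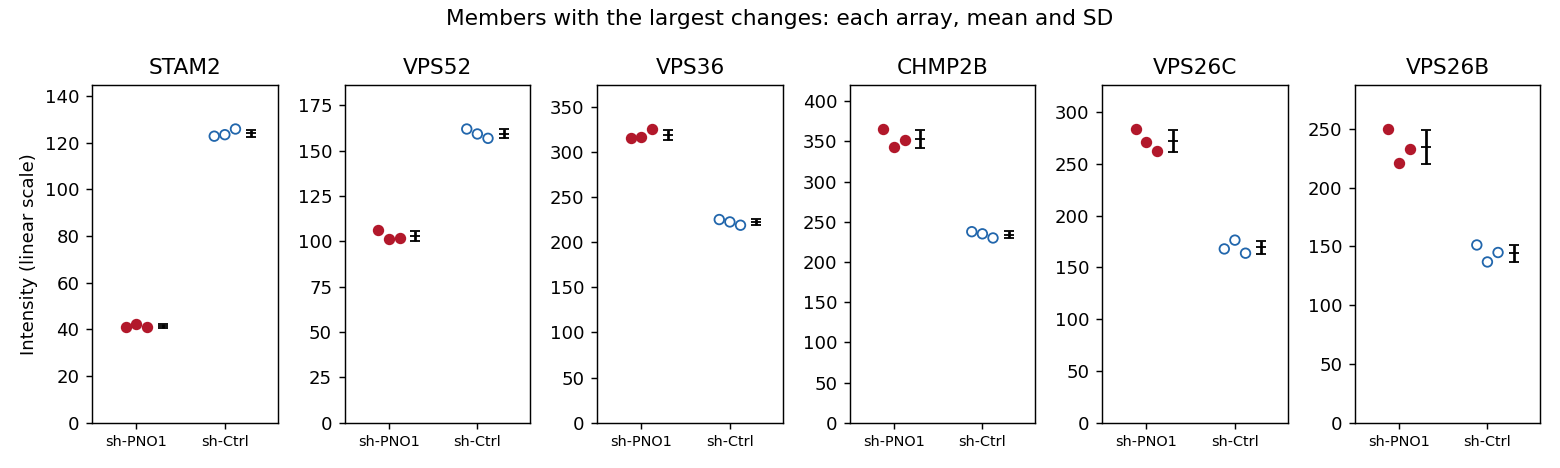
Intensity on a linear scale (y axis, from 0) of the 6 genes that passed with a log2 fold change of 0.5 or more in size; points are single arrays, sh-PNO1 filled and sh-Ctrl open, and bars give the mean and SD of 3 arrays. The groups are apart in each panel, with sh-PNO1 lower for STAM2 and VPS52 and higher for the other 4.

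The reference sequence before the start of the genes with the largest fall (STAM2, VPS52) and the largest rise (VPS26B, VPS26C) is shown here so that the promoters of genes that moved in opposite directions can be set side by side. Each is the 250 bases upstream of an annotated start, from RefSeq on GRCh38.p14 and written in the direction of the gene: STAM2 at chr2:152175764-152176013 (minus strand), VPS52 at chr6:33271966-33272215 (minus), VPS26B at chr11:134224421-134224670 (plus) and, for 2 starts of VPS26C, chr21:37268109-37268358 and chr21:37267335-37267584 (minus). A further VPS52 start overlaps the window shown. Capitals mark CACGTG, the core of the E-box and of the lysosomal CLEAR element, and CCGGAAG, an ETS core, on either strand (CTTCCGG on the other).
STAM2: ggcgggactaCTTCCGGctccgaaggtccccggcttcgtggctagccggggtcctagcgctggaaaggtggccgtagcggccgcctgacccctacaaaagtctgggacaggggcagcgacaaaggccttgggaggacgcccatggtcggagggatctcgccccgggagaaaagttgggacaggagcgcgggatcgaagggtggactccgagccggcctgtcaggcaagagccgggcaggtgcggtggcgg
VPS52: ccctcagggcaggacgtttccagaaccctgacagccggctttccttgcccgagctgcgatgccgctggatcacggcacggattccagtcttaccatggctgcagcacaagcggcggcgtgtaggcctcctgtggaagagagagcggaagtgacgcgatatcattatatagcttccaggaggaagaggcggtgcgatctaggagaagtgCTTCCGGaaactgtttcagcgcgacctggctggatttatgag
VPS26B: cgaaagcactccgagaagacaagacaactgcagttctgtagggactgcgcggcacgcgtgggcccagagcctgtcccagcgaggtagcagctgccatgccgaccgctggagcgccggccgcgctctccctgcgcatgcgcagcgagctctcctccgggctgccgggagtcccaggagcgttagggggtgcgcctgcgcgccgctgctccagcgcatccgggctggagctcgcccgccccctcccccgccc
VPS26C, upstream start: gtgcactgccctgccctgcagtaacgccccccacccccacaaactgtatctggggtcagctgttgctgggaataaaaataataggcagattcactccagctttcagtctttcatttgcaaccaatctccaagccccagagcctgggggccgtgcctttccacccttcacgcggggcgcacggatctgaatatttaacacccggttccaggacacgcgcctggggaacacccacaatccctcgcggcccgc
VPS26C, downstream start: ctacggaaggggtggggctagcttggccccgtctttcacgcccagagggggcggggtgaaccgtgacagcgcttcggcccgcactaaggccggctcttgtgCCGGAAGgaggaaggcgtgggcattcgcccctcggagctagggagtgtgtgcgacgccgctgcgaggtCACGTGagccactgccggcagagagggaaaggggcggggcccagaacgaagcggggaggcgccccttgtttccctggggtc
STAM2 and VPS52 each hold 1 ETS core and no E-box, the VPS26B window holds neither, and the nearer of the VPS26C windows to the gene's 3' end holds 1 of each. Promoter windows were found for 37 of the 50 genes. These were all 9 that fell, but 12 of the 21 that rose and 16 of the 20 that did not pass. An ETS core stood in 7 of the 9 genes that fell, in 2 of 12 that rose and in 6 of 16 that did not pass, against 10.2% of 27305 genes in the promoter table. Over all array genes with a window it stood in 18.1% of those that fell, 20.2% of those that rose and 11.9% of those that did not pass. CACGTG stood in 1 of the 9, 3 of the 12 and 2 of the 16 member genes (7.73% in the table), and in 11.7% of all array genes that fell, 11.3% of those that rose and 8.99% of those that did not pass. The motifs were picked after the sequences had been looked at, and STAM2 and VPS52 are among the 7 that fell with an ETS core. A match is a description of these letters, not a binding site.

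ESCRT-0 was the one ESCRT complex in which no gene rose. The counts of each complex, here and below, stand against the 9519 genes at least as bright as the dimmest sorting gene. Of these 29.2% rose and 21.5% fell. Each complex holds few genes, and none was tested against those shares. STAM, the paralog of STAM2, also fell, though by far less. It read 154, 153 and 149 in sh-PNO1, against 184, 182 and 171 in sh-Ctrl, each sh-PNO1 array below each control (log2 fold change −0.23 ± 0.05 SE, limma adjusted p = 0.00718, both probe sets lower). HGS (HRS), which brings the complex to the endosomal membrane, read 140.3, 143 and 143 in sh-PNO1, against 143, 137 and 144 in sh-Ctrl, and its groups overlapped on this probe set (log2 fold change 0.01 ± 0.04 SE, limma adjusted p = 0.917). A dimmer HGS probe set fell, reading 37.4, 35.8 and 33.0 in sh-PNO1 and 43.3, 41.9 and 49.8 in sh-Ctrl (log2 fold change −0.34 ± 0.08 SE, limma adjusted p = 0.0116), so the probe sets of HGS do not give a single answer.

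In ESCRT-I, which links cargo capture to the later complexes, 5 of 6 genes rose and 1 fell. TSG101, the founding subunit that binds ubiquitin, was the one that fell. It read 422, 416 and 436 in sh-PNO1, against 480.5, 480.5 and 480.5 in sh-Ctrl, with the same deposited value on all 3 control arrays (log2 fold change −0.18 ± 0.04 SE, limma adjusted p = 0.0142); its other 2 probe sets, at −0.04 and −0.07, did not pass, and with the 3 averaged it no longer passed (−0.10, adjusted p = 0.0546). VPS28, a core subunit that binds ESCRT-II, rose on both probe sets (log2 fold change 0.41 ± 0.05 SE, limma adjusted p = 0.000363). Each of the 4 VPS37 paralogs, of which a complex holds 1, stood higher. VPS37A read 90.0, 92.3 and 92.5 in sh-PNO1, against 69.2, 66.6 and 67.9 in sh-Ctrl, a clear gap between the groups (log2 fold change 0.43 ± 0.04 SE, limma adjusted p = 0.000182). VPS37C stood at 0.36 and VPS37D at 0.33, but without probe sets whose suffix marks them as matching several transcripts (_x_at, _s_at) they stood at 0.07 (adjusted p = 0.423) and −0.05 (adjusted p = 0.519). VPS37B, at 0.16, passed narrowly (adjusted p = 0.0470), and lost its call when any of the 6 arrays was left out (up to 0.136) and with replicate number as a block (0.0645).

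The ESCRT-II subunits split. A complex holds SNF8 (VPS22), VPS36 and VPS25, and these gave a fall, a rise and no pass. SNF8, the subunit that joins the others, read 561, 609 and 595 in sh-PNO1, against 826, 799.7 and 818 in sh-Ctrl, all sh-PNO1 arrays far below the controls (log2 fold change −0.47 ± 0.05 SE, limma adjusted p = 0.000225). SNF8 was read by 1 probe set. VPS36 rose as described. VPS25, which recruits ESCRT-III, read 280.5, 313 and 297 in sh-PNO1, against 271, 269.5 and 260.0 in sh-Ctrl; its groups did not overlap, but it did not pass (log2 fold change 0.15 ± 0.05 SE, limma adjusted p = 0.0650).

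Of the 10 ESCRT-III genes measured 4 rose, 2 fell and 4 did not pass. Beside CHMP2B the risers were 2 of the 3 CHMP4 genes, whose products form the filament. CHMP4B, the main form, read 391, 387 and 396 in sh-PNO1, against 299.7, 306 and 307 in sh-Ctrl and rose on both probe sets (log2 fold change 0.36 ± 0.04 SE, limma adjusted p = 0.000388). CHMP4C, which delays the cutting of the division bridge when chromatin is caught in it, rose by 0.24 ± 0.05 SE on its single probe set. CHMP7, which brings ESCRT-III to the nuclear envelope, rose by 0.35, but its other probe set, a dim one, did not pass (0.10, adjusted p = 0.339). CHMP4A went the other way (log2 fold change −0.19 ± 0.04 SE, limma adjusted p = 0.0147, both probe sets lower), and did not pass without sh-Ctrl replicate 2 (adjusted p = 0.0519). CHMP1A, a late-acting subunit that recruits VPS4, was lower on all 5 probe sets. Its brightest read 379, 366 and 397 in sh-PNO1, against 459, 426 and 429 in sh-Ctrl, without overlap (log2 fold change −0.20 ± 0.05 SE, limma adjusted p = 0.0213), but it did not pass without sh-PNO1 replicate 1, sh-PNO1 replicate 2 or sh-Ctrl replicate 1 (adjusted p of 0.0584, 0.0699 and 0.0726). CHMP2A (0.14), CHMP5 (0.13), CHMP1B (0.13) and CHMP6 (−0.05) did not pass, though the other CHMP1B probe set rose (0.21, adjusted p = 0.0190). Of the VPS4 ATPases VPS4A rose, reading 271, 263 and 249 in sh-PNO1, against 214, 213 and 201 in sh-Ctrl (log2 fold change 0.32 ± 0.05 SE, limma adjusted p = 0.00229), while VPS4B stood at 0.12 (adjusted p = 0.0649).

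Retromer has VPS35 as its scaffold, VPS29 at one end and VPS26A or VPS26B at the other, and its genes moved apart. VPS29 was the brightest of them and rose slightly, 1117, 1078 and 1057 in sh-PNO1, against 928, 964 and 947 in sh-Ctrl (log2 fold change 0.20 ± 0.04 SE, limma adjusted p = 0.0121), on 5 of 7 probe sets. The other 2 VPS29 probe sets, both dim, carry the same 6 values and so count as a single measurement. VPS35 fell slightly, 394, 385 and 380.0 in sh-PNO1, against 433, 436 and 435 in sh-Ctrl, with groups well apart (log2 fold change −0.17 ± 0.04 SE, limma adjusted p = 0.0166), but its probe set can match several transcripts, and of the other 2 probe sets the brighter did not pass (−0.08, adjusted p = 0.303) and the dimmer fell (−0.27, adjusted p = 0.0193). VPS26A, the ubiquitous form of the subunit, read 205, 187 and 176 in sh-PNO1, against 196, 219 and 196 in sh-Ctrl; its groups overlapped and none of its 4 probe sets passed (log2 fold change −0.11 ± 0.07 SE, limma adjusted p = 0.310). In retriever VPS26C rose, and the scaffold VPS35L read 77.6, 71.2 and 72.3 in sh-PNO1, against 81.6, 83.3 and 74.1 in sh-Ctrl, with overlap (log2 fold change −0.11 ± 0.06 SE, limma adjusted p = 0.216). Of 4 retromer genes 2 therefore rose and 1 fell, and of the 2 named retriever genes 1 rose.

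Of the 4 genes of the core that HOPS and CORVET share, each had all sh-PNO1 arrays above all controls, and 2 passed. Over all genes 44.7% had groups that did not overlap, in either direction. VPS18 read 74.4, 72.6 and 78.6 in sh-PNO1, against 67.2, 63.2 and 59.3 in sh-Ctrl (log2 fold change 0.25 ± 0.06 SE, limma adjusted p = 0.0148). VPS33A, which templates the SNARE proteins for fusion, read 105, 109 and 122 in sh-PNO1, against 99.8, 86.2 and 83.8 in sh-Ctrl, a wide spread in both groups (log2 fold change 0.32 ± 0.08 SE, limma adjusted p = 0.0228). Neither call was firm. VPS18 did not pass without sh-PNO1 replicate 3, sh-Ctrl replicate 2 or sh-Ctrl replicate 3 (adjusted p of 0.0559, 0.0520 and 0.0506), nor VPS33A without sh-PNO1 replicate 2 or 3 or sh-Ctrl replicate 2 or 3 (0.0594, 0.0803, 0.0910 and 0.0900). VPS11 (0.24, adjusted p = 0.0734) and VPS16 (0.16, adjusted p = 0.0648) did not pass. VPS8, a subunit found in CORVET and not in HOPS, read 58.4, 58.3 and 55.4 in sh-PNO1, against 46.5, 43.8 and 45.5 in sh-Ctrl and rose with no overlap (log2 fold change 0.34 ± 0.05 SE, limma adjusted p = 0.00104). TGFBRAP1, the other subunit particular to CORVET and the counterpart of VPS39, lies outside the naming rule and was added here after its values were seen. It read 53.2, 46.5 and 51.9 in sh-PNO1, against 48.8, 51.2 and 46.2 in sh-Ctrl, with overlap, and did not pass (log2 fold change 0.05 ± 0.07 SE, limma adjusted p = 0.615). Neither subunit particular to HOPS passed: VPS41 read 133, 124 and 142 in sh-PNO1, against 141, 145 and 128 in sh-Ctrl, and VPS39 read 106, 92.5 and 101 in sh-PNO1, against 106, 100.3 and 101 in sh-Ctrl, with overlap in both. Their fold changes were −0.06 and −0.04 (limma adjusted p = 0.587 and 0.648). VPS33B, of the related CHEVI complex, read 86.2, 98.3 and 96.8 in sh-PNO1, against 82.7, 84.0 and 85.8 in sh-Ctrl and did not pass (log2 fold change 0.15 ± 0.06 SE, limma adjusted p = 0.0926), whereas its other probe set rose (0.26, adjusted p = 0.0114).

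Of the 5 GARP and EARP genes, by their brightest probe sets, VPS52 fell, VPS53 rose and 3 did not pass. VPS51 read 97.3, 98.4 and 99.3 in sh-PNO1, against 96.1, 93.3 and 94.9 in sh-Ctrl, and its small difference did not pass (log2 fold change 0.05 ± 0.04 SE, limma adjusted p = 0.382). VPS54, which makes the complex GARP, read 122, 137 and 132 in sh-PNO1, against 126, 132 and 128 in sh-Ctrl, and VPS50, which makes it EARP, read 76.6, 69.8 and 73.6 in sh-PNO1, against 70.2, 72.3 and 71.5 in sh-Ctrl; the groups overlapped for both. They stood at 0.02 and 0.04 (limma adjusted p = 0.848 and 0.605). VPS53 could not be called in a single direction, as its probe sets disagreed. VPS52 fell on 4 of its 6 probe sets. The 2 brightest stood at −0.63 and −0.59 on the log2 scale. The other 2 that fell were dim, at −0.54 (mean 24.4 in sh-PNO1, 35.4 in sh-Ctrl) and −0.83 (12.4 and 21.9). The 2 that did not pass, also dim, stood at −0.25 and −0.11.

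Beside these complexes, the VPS13 proteins are bridges that move lipids between membranes. VPS13A, whose loss causes chorea-acanthocytosis, read 200.4, 204 and 214 in sh-PNO1, against 165, 158 and 147 in sh-Ctrl and rose on 1 of 3 probe sets (log2 fold change 0.40 ± 0.06 SE, limma adjusted p = 0.00135). VPS13D rose on its brightest probe set only. VPS13B (0.05, adjusted p = 0.558) and VPS13C (0.10, adjusted p = 0.256) did not pass. VPS45, which assists SNARE pairing on early endosomes, fell by 0.25 on the log2 scale and lost its call without sh-PNO1 replicate 1 or 2 or sh-Ctrl replicate 1 or 3 (adjusted p of 0.0635, 0.0653, 0.0697 and 0.0561). VPS72, which shares the name but is a histone chaperone of chromatin remodelling complexes, read 243, 233 and 225 in sh-PNO1, against 190.1, 189 and 182 in sh-Ctrl and rose (log2 fold change 0.32 ± 0.05 SE, limma adjusted p = 0.00152). VPS9D1 did not pass (0.05, adjusted p = 0.605).

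Probe sets of a single gene did not always give the same call. Of the 36 member genes with more than 1 probe set, in 7 all probe sets passed one way, and in 2 some passed each way. Over all genes with more than 1 probe set, 11.0% had every one passing in one direction and 1.98% had passes in both. The genes with passes in both were VPS53 and VPS13D. For VPS53 the brightest probe set read 90.5, 95.7 and 89.7 in sh-PNO1, against 78.5, 84.2 and 78.6 in sh-Ctrl and rose (log2 fold change 0.19 ± 0.05 SE, limma adjusted p = 0.0228), whereas the next read 52.3, 55.5 and 50.8 in sh-PNO1 and 63.4, 66.9 and 67.3 in sh-Ctrl and fell (log2 fold change −0.32 ± 0.05 SE, limma adjusted p = 0.00237). Both were free of overlap, so that which probe set is taken sets the direction. The rise also did not pass without sh-PNO1 replicate 2, sh-Ctrl replicate 1 or sh-Ctrl replicate 3 (adjusted p of 0.0714, 0.0778 and 0.0758). For VPS13D the brightest read 85.0, 75.6 and 77.4 in sh-PNO1, against 59.4, 58.1 and 60.8 in sh-Ctrl and rose (log2 fold change 0.41 ± 0.06 SE, limma adjusted p = 0.000949), and the next read 49.1, 53.0 and 52.9 in sh-PNO1 and 61.4, 57.9 and 55.7 in sh-Ctrl and just passed as lower (log2 fold change −0.18, adjusted p = 0.0484). With its 5 probe sets averaged VPS13D stood at 0.05 (adjusted p = 0.282). STAM2 fell on 3 of 4 probe sets (−1.58, −1.24 and −1.11), and the other, about as bright in sh-PNO1 (35.6, 35.02 and 40.3, against 43.0, 41.4 and 40.6 in sh-Ctrl), stood at −0.17 and did not pass. The files do not say which transcript or exon a probe set reads.

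**Figure D3:**
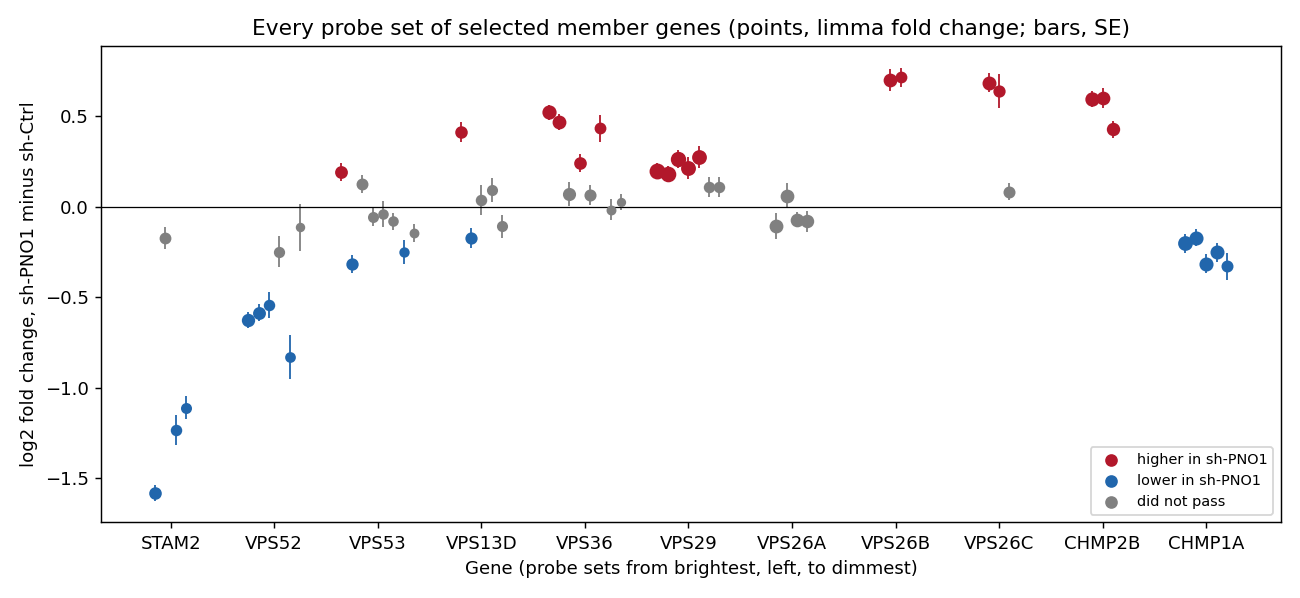
Log2 fold change with its SE (y axis) of every probe set of 11 member genes (x axis, brightest to the left within a gene, larger points for brighter probe sets); red rose, blue fell and grey did not pass in sh-PNO1 against sh-Ctrl. STAM2, VPS52 and CHMP1A keep to 1 side where they pass, VPS53 and VPS13D have points that pass on both sides.

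Members of a family, or subunits of sister complexes, were then compared within each array. For each of 25 pairs the difference of the 2 log2 intensities was taken on every array and set relative to the mean of the control arrays, and an exact two-sided permutation test over the 6 arrays was run, whose smallest possible p is 0.1 (0.156 when adjusted over the 25). VPS26A minus VPS26B was −0.79, −0.74 and −0.90 on the sh-PNO1 arrays, against −0.12 to 0.18 on the sh-Ctrl arrays (exact p = 0.1), so the 2 forms changed unequally by more than the spread of the arrays. STAM minus STAM2 was 1.39, 1.32 and 1.34, against −0.09 to 0.06 (exact p = 0.1). CHMP4A minus CHMP4B was −0.58, −0.52 and −0.54, against −0.01 to 0.03 (exact p = 0.1), the opposite moves of those paralogs. CHMP2A minus CHMP2B was −0.56, −0.37 and −0.43, against −0.04 to 0.04 (exact p = 0.1). VPS41 minus VPS8, a HOPS and a CORVET subunit, was −0.42, −0.52 and −0.26, against −0.11 to 0.12 (exact p = 0.1). VPS39 minus VPS8 was −0.32, −0.51 and −0.32, against −0.02 to 0.02 (exact p = 0.1). The CORVET counterpart of VPS39 is TGFBRAP1, however, and that pair was not tested. In all, the groups lay apart in 16 of the 25 pairs, several of which share a gene, and overlapped in 9. Each gene entered by its brightest probe set alone, and probe sets of a single gene can differ as much. CHMP4B minus CHMP4C, counted as apart, differed by 0.12, while the probe sets of CHMP4B stood at 0.36 and 0.60. VPS13D, whose probe sets passed both ways, lay apart from VPS13B and VPS13C. STAM2 entered at −1.58, where another of its probe sets stood at −0.17. The share over other pairs of genes was not taken, and 44.7% of all single genes had groups that did not overlap. Of the 9 pairs that overlapped 3 follow. VPS54 minus VPS50, GARP against EARP, was −0.18, 0.12 and −0.01, against −0.01 to 0.02 (exact p = 0.9), and VPS35 minus VPS35L was −0.10, −0.01 and −0.05, against −0.06 to 0.10 (exact p = 0.5). VPS37A minus VPS37C was 0.04, 0.05 and 0.13, against −0.04 to 0.04 (exact p = 0.2). None of these p-values passes 0.05, which 3 arrays against 3 cannot do.

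Partner genes outside the naming rule were counted in the same fit. Of 54 measured, 27 rose, 6 fell and 21 did not pass, with a median log2 fold change of 0.18. Over all genes 18.4% rose and 13.2% fell, and over the 9519 genes at least as bright as the dimmest sorting gene 29.2% rose and 21.5% fell, which is what the counts of each partner list below stand against. Without _x_at and _s_at probe sets 46 partner genes were left, of which 19 rose and 6 fell. At an adjusted p under 0.01, 18 of the 54 rose and 5 fell. STX12, VAMP8, WASHC2C, COMMD9, UBAP1 and BECN1, named below, were read by _x_at or _s_at probe sets. PLEKHM1 and WASHC3 have 1 probe set each. Among 13 tethering and fusion partners 9 rose and none fell at the adjusted threshold. PLEKHM1, an adaptor that binds HOPS, averaged 218 ± 5.32 in sh-PNO1 and 125 ± 5.53 in sh-Ctrl (SD, n = 3 each; log2 fold change 0.81 ± 0.05 SE, limma adjusted p = 2.00e-05), and the SNARE genes STX12 (0.45), STX8 (0.42) and VAMP8 (0.32) rose as well. Among 13 retromer partners 6 rose and 2 fell. WASHC3, of the actin-nucleating WASH complex, averaged 86.1 ± 0.62 in sh-PNO1 and 49.9 ± 1.90 in sh-Ctrl (SD, n = 3 each; log2 fold change 0.79 ± 0.05 SE, limma adjusted p = 1.59e-05), WASHC2C (0.32) and SNX2 (0.24) rose, and TBC1D5, which restrains RAB7 on retromer membranes, fell (−0.52). Retriever partners went both ways, 5 of 13 higher and 3 lower. COMMD1, of the COMMD complex that works with retriever, averaged 63.7 ± 2.52 in sh-PNO1 and 139 ± 2.66 in sh-Ctrl (SD, n = 3 each; log2 fold change −1.12 ± 0.05 SE, limma adjusted p = 4.51e-06, 1 probe set). COMMD10 also fell (−0.44), while COMMD9 (0.45) and COMMD7 (0.28) rose. Of 10 ESCRT accessory genes 4 rose, namely the deubiquitinase STAMBP (0.42), the ESCRT-I subunits UBAP1 (0.38) and MVB12B (0.36) and CC2D1A (0.27), and none fell. Of 5 endosomal PI3-kinase genes 3 rose, BECN1 (0.29), ATG14 (0.25) and the catalytic PIK3C3 (0.21), and the regulatory PIK3R4 fell (−0.24).

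Set against genes of like brightness, most of these changes were of ordinary size. When all genes were cut into 10 bins of equal size by mean intensity, 45 of the 50 sorting genes lay between the 5th and 95th percentile of log2 fold change in their own bin. By construction 10% of all genes lie outside these bounds, and the share of the sorting genes outside was the same. The number outside is therefore no result about the sorting genes as a set. VPS26B, VPS26C, CHMP2B and VPS36 lay above it and STAM2 below it. VPS52, at −0.63, lay inside the range of its bin, whose 5th percentile was −0.67. Of the 50 genes 3, VPS29, CHMP5 and SNF8, had a group mean above all 23 background probe sets of the array, whose group means ran from 2.52 to 804. For the other sorting genes, nonspecific signal can make a fold look smaller than it is. The brightest background probe set is not a floor for every gene, as PNO1, at 534 in sh-Ctrl, also lay below it.

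**Figure D4:**
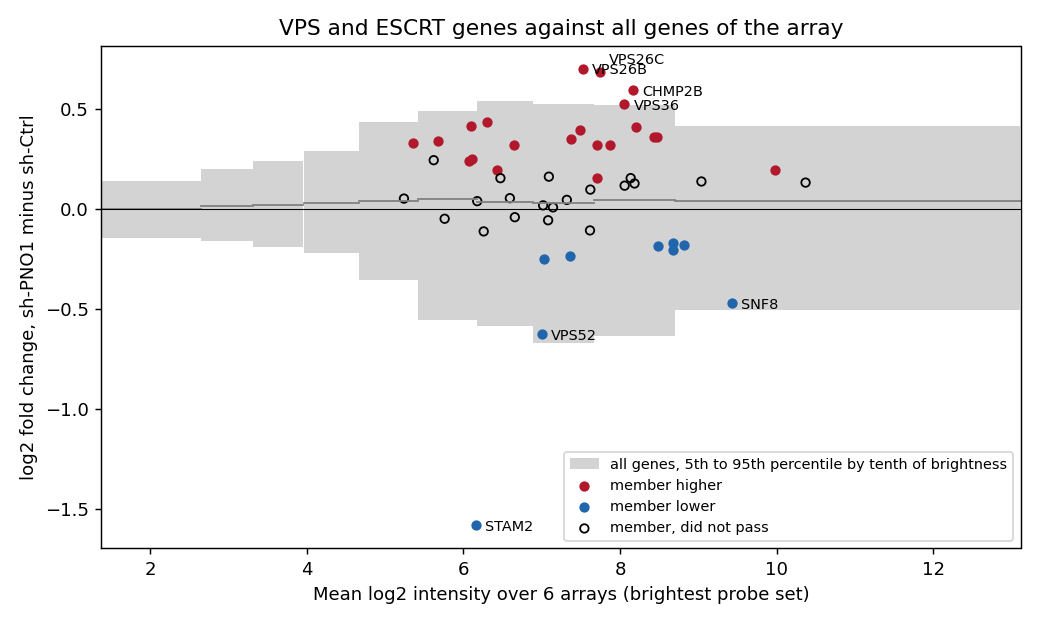
Log2 fold change, sh-PNO1 minus sh-Ctrl (y axis), against mean log2 intensity over 6 arrays (x axis) for the 50 genes; grey blocks span the 5th to 95th percentile of all genes in each brightness bin and grey lines their medians. STAM2 lies far below the grey range, and VPS26B, VPS26C, CHMP2B and VPS36 lie above it.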

How the data were processed

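Expression was measured on 6 Affymetrix arrays, 3 sh-PNO1 and 3 sh-Ctrl, from 100 ng of total RNA each, as stated in the protocols. The authors deposited linear intensity values, and RMA is the tool that the submitters' processing notes name; no version or build is given in the sources used here. Log2 was taken here. Array number limits the precision of all values.

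Groups and replicate numbers came from the sample titles. The platform's gene table gave 44988 of 49293 probe sets a single symbol; 1832 had several and 2473 were not listed. All 135 member probe sets matched the gene table of assembly GRCh38.p14 by gene identifier. In limma (version 3.58.1, R version 4.3.3) lmFit and eBayes were run over all 49293 probe sets, sh-PNO1 minus sh-Ctrl, with no covariate and Benjamini-Hochberg adjustment, and this was tested on simulated data. The genes named with values on every array were those past 0.5 on the log2 scale, those with probe sets passing in both directions and the subunit with the smallest adjusted p in each complex, with further subunits of each complex added; up to 4 genes came from each partner list. Members, complexes, pairs and partner lists were chosen with earlier results of these data known. Alternatives were replicate number as a block, another variance model, normalisations, filters, ways to combine probe sets, a stricter threshold and each array left out in turn; those on partner lists and pairs were added after seeing the data. Same-numbered arrays did not deviate together from their group means (correlations of −0.04, 0.10 and −0.03), so the numbers were not taken to pair samples.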

Additional observations from a re-analysis of the deposited data

How the results depend on the processing

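The 21 genes that rose and 9 that fell were 16 and 4 at an adjusted p under 0.01, where the probe sets that fell numbered 12 in place of 25. With single arrays left out 17 to 23 genes rose and 7 to 9 fell, 30 to 39 probe sets rose and 18 to 23 fell, 21 to 27 partner genes rose and 5 to 8 fell, and PNO1 stood between −2.35 and −2.32. With replicate number as a block 20 genes rose and 9 fell; VPS37B (adjusted p = 0.0645) was the only member gene whose call this ended, and PNO1 kept its value of −2.33 (adjusted p = 1.96e-05). Of the 30 genes that passed, 16 passed under every alternative run, STAM2, VPS52, SNF8, VPS26B, VPS26C, CHMP2B and VPS36 among them. SNF8 has 1 probe set, as do CHMP4C, VPS4A and VPS8, which are also among the 16. For these genes the settings that choose or combine probe sets could not change the fold change.

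A change of probe sets turned the sign of HGS, VPS53 and VPS37D, each of which passed under at least 1 setting. HGS, at 0.01, stood at −0.34 both without _x_at and _s_at probe sets (adjusted p = 0.0124) and with the most variable probe set (0.00848), and at −0.17 with probe sets averaged (0.0275). VPS53, at 0.19, stood at −0.072 averaged (0.138) and −0.32 by the most variable probe set (0.00190). VPS37D, at 0.33, stood at −0.051 without _x_at and _s_at probe sets (0.519). VPS13C and VPS50 did not pass under any alternative, but their sign turned too, to −0.031 and −0.0030 with probe sets averaged. Calls were gained by 10 genes besides HGS. CHMP2A, CHMP5, VPS16 and VPS25 passed as higher with a mean-variance trend, in the gene fits by brightest and by averaged probe sets, and with the dimmest 30% left out (adjusted p of 0.0380, 0.0411, 0.0448 and 0.0449), but not by the most variable probe set (0.0512, 0.0988, 0.0551 and 0.0559). For CHMP2A, VPS16 and VPS25, with 1 probe set each, that last fit read the same probe set, and only those of other genes differed. VPS4B passed under 3 settings, CHMP1B and VPS33B under 3 each, VPS11 under 2, and VPS13B and VPS35L (lower) under 1 each. The cause of these shifts was not tested.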
